A study of Mus musculus with 4 samples.

Results

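CD8 T cells made up 826 of the 6301 barcodes that passed the cell filter in the late db/db library of mouse pancreatic islet cells, among 20845 passing barcodes in the 4 libraries together. The same rule found 4, 22 and 6 cells in the intervention, early db/db and control libraries. A barcode stands for 1 droplet, and a UMI for 1 captured RNA molecule. A barcode was counted as a CD8 T cell with at least 1000 UMIs, at least 500 genes, at most 20% mitochondrial UMIs, at least 2 UMIs of Cd3e, Cd3d and Cd3g together and at least 1 UMI of Cd8a and Cd8b1 together. It also had to hold no UMI of Cd4, Foxp3 or Cd79a and less than 10% of its UMIs from Ins1 and Ins2. These genes chose the cells, so their levels are a description.

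The study measured single-cell RNA of mouse islets in 4 libraries, 1 per group, with the 10x Genomics 3′ kit v3. The groups were late db/db at 98 days of age, late db/db with intervention at 98 days, early db/db at 70 days and normal control at 98 days. The genotype is labelled db/db(C57BL/KsJ) in every library, also in the control, although C57BL/6 mice appear in the growth protocol, and the control's strain cannot be settled from the labels. The mice were males bought at 8 weeks of age, and db/db mice, which lack a working leptin receptor, were kept until blood glucose passed 10 mmol/l. What the intervention was and how many mice went into a library is not stated in the sources used, and the early library's file is named like another control, where the sample label was followed. With 1 library per group there were no replicates and no test was run. All intervals are exact 95% intervals, binomial for shares and conditional binomial for ratios of summed UMIs, and they cover counting error only. Early db/db was also younger than the rest, so age, library and group cannot be told apart there.

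CD8 T cells carry the CD8 coreceptor, which binds MHC class I, and they kill cells that present a recognised peptide. A naive CD8 T cell has not met its antigen: it circulates through lymph nodes with the chemokine receptor Ccr7 and keeps the transcription factors Lef1 and Tcf7. Effector cells make granzymes, perforin, interferon-gamma and the chemokine Ccl5. Central memory cells regain Ccr7 while keeping Ccl5, Cd44, Il2rb, Eomes and Cxcr3, and effector memory cells stay without it. In autoimmune diabetes of mice CD8 T cells enter islets and attack beta cells.

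A T cell receptor complex was present throughout the CD8 T cells. Cd8b1, the beta chain of the coreceptor, was found in 98.2% of the cells, Cd8a in 90.8%, Cd3e in 90.4% and Cd3d in 98.2%. Markers that the rule did not use were as frequent: Trbc2, a constant region of the T cell receptor beta chain, was found in 97.9% of cells, Trac of the alpha chain in 90.8% and Lck, the kinase bound to the coreceptor, in 95.3%. Trdc of the gamma-delta receptor was found in 3.27%, Klrb1c of natural killer cells in 0.726% and Zbtb16, the factor of innate-like T cells, in 1 cell. Rag1 and Rag2, the recombinases of developing thymocytes, were at 0 UMIs, and so were all 5 neutrophil markers (S100a8, S100a9, Retnlg, Csf3r and Camp). Of the whole marker lists of other cells, that of neutrophils was empty and others were not. At least 2 UMIs of the natural killer list, which holds Eomes, were found in 70 CD8 T cells. The list for natural killer T and other innate T cells reached 2 UMIs in 79 cells and the thymocyte list in 8. The B cell list, which holds Ighm, did so in 576 cells. The label CD8 T cell thus matched Trbc2, Trac and Lck, while transcripts of other lists were also present.

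The cells held 1122 to 63458 UMIs each, with a median of 7752 UMIs and 1996 genes. Of the steps of the rule, the CD3 requirement left 2210 of 6301 barcodes, the CD8 requirement 992, the absence of Cd4 917, of Foxp3 905 and of Cd79a 841, and the insulin limit 826. Just inside, 7 cells had a Cd3 sum of 2 and 36 had 1 Cd8 UMI, of which 6 (16.7%) held Nkg7, a granule protein of cytotoxic cells. Just outside, 10 barcodes had a Cd3 sum of 1, 64 held both Cd4 and CD8 UMIs and 15 had at least 10% insulin UMIs, at a median of 110781 UMIs. A further 444 T barcodes held none of Cd4, Cd8a, Cd8b1 and Foxp3, and 33 of them (7.43%) held Nkg7. Because detection of the coreceptors limits both counts, no ratio of CD8 to CD4 T cells was read.

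T barcodes, meaning at least 2 Cd3 UMIs, no Cd79a and under 10% insulin UMIs, numbered 2008 in late db/db (31.9% of passing barcodes), 12 with intervention (0.235%), 80 in early db/db (1.67%) and 10 in the control (0.216%). CD8 T cells by the same rule numbered 826 in late db/db (13.1%, 12.3 to 14.0), 4 with intervention (0.0782%), 22 in early db/db (0.458%) and 6 in the control (0.130%). Only the late library therefore holds enough of these cells for sums over all genes. The passing barcodes of the late library were also the shallowest, with a median of 6428 UMIs against 26842 with intervention, 14993 in early db/db and 26469 in the control. The late library shared 16 barcode sequences with the intervention library, 11 with early db/db, of which 1 was a CD8 T cell, and 8 with the control. Whether these lymphocytes came from within islets or from tissue carried along in the isolation cannot be told from the sources used here.

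Genes of the naive state were widespread in the late db/db CD8 T cells. Lef1 was found in 90.7% of cells, Igfbp4, a binding protein of insulin-like growth factors that marks naive T cells in mice, in 78.0%, Ccr7 in 74.1% and Dapl1 in 72.4%. The summed UMIs of these 4 genes, the naive set, ran from 0 to 82 per cell with a median of 12, and 17 cells had none. Genes that keep T cells quiescent and circulating stood beside them, as Klf2, the factor that drives exit-receptor expression, was found in 97.3% of cells. Satb1, a chromatin organiser, was found in 88.3%, Tcf7 in 77.0%, Il7r, the survival receptor for interleukin 7, in 71.8%, and S1pr1, the receptor for exit from lymph nodes, in 63.6%. Bcl2, which protects against cell death, was found in 89.3% at 598 CPM, UMIs scaled to a sum of 1000000 over all genes but the mitochondrial and 7 hormone genes.

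Genes of the cytotoxic lineage differed widely in how many cells held them. Nkg7 was found in 88.9% of the CD8 T cells at 529 CPM, Ctsw, a granule-associated cathepsin, in 74.8%, Klrd1, which encodes the receptor CD94, in 59.1% and Runx3, the factor of the CD8 lineage, in 71.2%. Perforin (Prf1) was found in 24.3%. Of the granzymes, Gzma was found in 1.33% of cells with 19 UMIs in all, Gzmb in 1.33% with 24 UMIs, Gzmk in 0.847% with 14 UMIs and Gzmm in 4.24% with 45 UMIs. Ifng was found in 3.75%. Klrg1 and Cx3cr1, which mark terminal effector cells, had 2 and 0 UMIs in the sum of the 826 cells. The granzyme and Klrg1 sums lie far below those of Nkg7, and the zero of Cx3cr1 allows up to 0.457 CPM, the level of 3 UMIs.

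Several markers of tissue residence and of exhaustion were sparse. Zfp683, which encodes the residence factor Hobit, had no UMI, Itgae (CD103) was found in 8.60% of cells and Itga1 in 0.605%. Cd69, which marks both residence and recent activation, was found in 61.5%. Of inhibitory receptors, Pdcd1 was found in 1.57% of cells, Lag3 in 2.06%, Havcr2 in 0.726% and Tigit in 0.363%, while Ctla4 was found in 12.1%. Tox, a factor of exhausted cells that other T cells also express, was found in 22.03%. Among these genes, Cd69 was thus the 1 widespread gene. The sparse residence genes were a selection and do not describe the whole residence list, of which 13 genes were measured. Of those 13, 4 passed the entry limits, which include a minimum level, when groups of the CD8 T cells were compared below. Xcl1 of that list had 647 UMIs in 83 of the 826 cells, with 62.4% of them in 5 cells. The levels of the other genes of the list are not given, and residence was not tested.

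Ccl5 divided the cells. It was found in 32.3% of the CD8 T cells: 559 cells had no Ccl5 UMI, 83 had 1, 24 had 2 and 160 (19.4%, 16.7 to 22.2) had 3 or more, up to 272. Of those 160 cells, 106 had at least 10. The 272 Ccl5 UMIs lay in the deepest cell, of 63458 UMIs, and the next highest value was 143. In other lymphocytes of the same library 3 or more Ccl5 UMIs were found in 9 of 471 CD4 T cells (1.91%), 6 of 193 Foxp3 T cells (3.11%) and 7 of 1953 B cells (0.358%). The 160 cells are called Ccl5-rich here and the 559 cells Ccl5-negative, a division of a continuous range that was chosen after the values were seen. The 107 cells between had a median of 8597 UMIs, against 9068.5 in Ccl5-rich and 7291 in Ccl5-negative cells.

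How many cells held both naive-set and effector-set UMIs depended on the limit and the depth. The effector set held Ccl5, Gzma, Gzmb, Gzmk, Prf1, Ifng, Cxcr6, Ccl3, Ccl4, Klrg1 and Cx3cr1. With a single UMI counted as detection, 350 cells (42.4%, 39.0 to 45.8) held only the naive set, 459 (55.6%, 52.1 to 59.0) held both, 10 held only the effector set and 7 held neither. Of the cells with an effector-set UMI, 178 had exactly 1. With at least 2 UMIs needed, 63.2% held only the naive set, 32.1% both and 3.15% only the effector set. At an equal depth of 1000 UMIs per cell, the shares were 58.8%, 13.6% and 10.4%. These classes are ranges of UMI sums, not cell types, and the class with only the effector set was too small for a comparison over all genes.

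**Figure D1:**
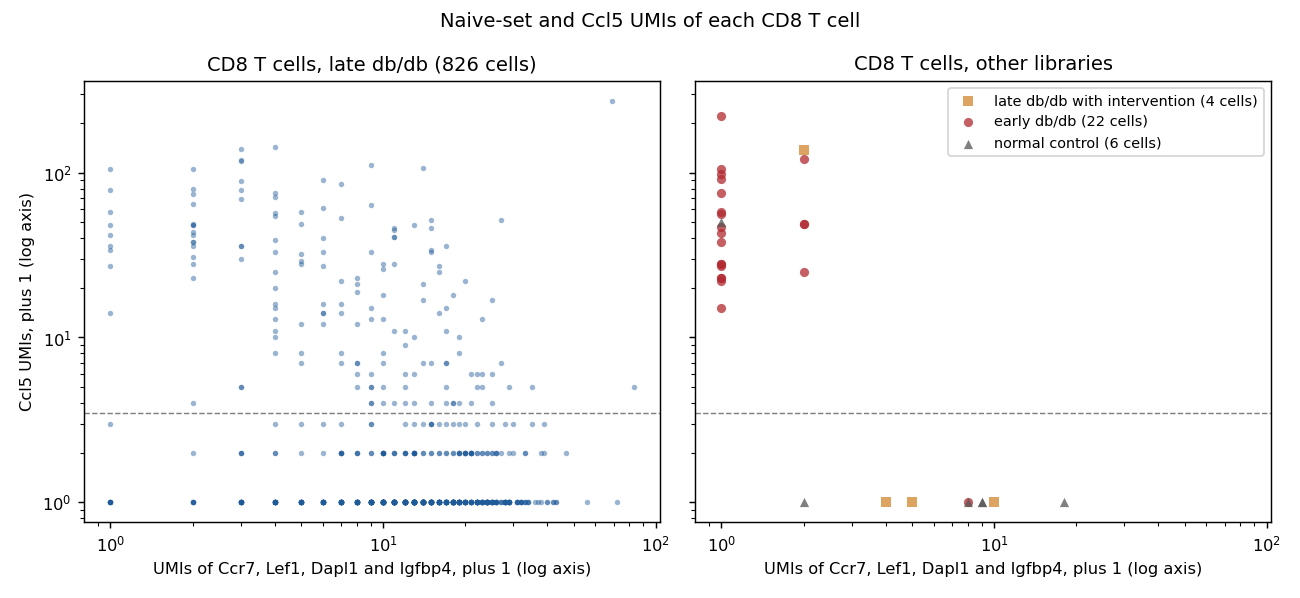
Each point is 1 CD8 T cell, placed by its UMIs of the 4 naive-set genes (x axis, plus 1, log scale) and its Ccl5 UMIs (y axis, plus 1, log scale), with the 826 late db/db cells on the left and the 4 intervention, 22 early db/db and 6 control cells on the right; the dashed line separates cells with at least 3 Ccl5 UMIs. Late Ccl5-rich cells spread over naive-set sums of 0 to 82, while 17 of 22 early db/db cells had a naive-set sum of 0. The late Ccl5-rich sums of 82 and 68 lay in the deepest cells, of 57647 and 63458 UMIs, and the next was 34.

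Most Ccl5-rich cells still held naive-set genes. Their naive-set sum had a median of 7 UMIs (0 to 82), against 13 (0 to 71) in Ccl5-negative cells, so the ranges overlapped. The highest sums came from deep cells, the 82 from 1 of 57647 UMIs and the 71 from 1 of 32323 UMIs. A sum of at least 5 was found in 101 of 160 Ccl5-rich cells (63.1%, 55.1 to 70.6) and 510 of 559 Ccl5-negative cells (91.2%). Within the Ccl5-rich cells it was found in 47 of the 54 with 3 to 9 Ccl5 UMIs (87.0%, 75.1 to 94.6) and in 54 of the 106 with 10 or more (50.9%, 41.0 to 60.8). Cells near the limit thus raised the share. Each of the 4 genes was less frequent in Ccl5-rich cells, as Ccr7 was found in 63.8% against 76.6%, Lef1 in 83.8% against 91.9%, Dapl1 in 50% against 77.1% and Igfbp4 in 52.5% against 84.6%. Cells with few UMIs of the naive genes were a minority of both groups, as 36 Ccl5-rich cells (22.5%) and 23 Ccl5-negative cells (4.11%) had a naive-set sum of at most 2. Granzyme a, b or k was found in 16 Ccl5-rich cells (10.0%, 5.82 to 15.7) and 9 Ccl5-negative cells (1.61%).

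The summed UMIs of the 160 Ccl5-rich cells were then set against those of the 559 Ccl5-negative cells. Genes of memory T cells were higher in the Ccl5-rich cells: of 19 memory-list genes that entered, 9 were at least 2-fold higher and none 2-fold lower, with a median log2 ratio of 0.70 against 0.01 over all genes. A gene entered with at least 50 CPM in the higher group and 20 UMIs in both together. Over all 2402 genes that entered, 52 (2.16%) were at least 2-fold higher and 17 (0.708%) at least 2-fold lower. Of these, 29 and 5 had more than 50% of their UMIs in 5 cells of the higher group. Ccl5 itself chose the groups and is not counted.

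Klrc1, which encodes the inhibitory receptor NKG2A that pairs with CD94, had 79 UMIs in Ccl5-rich and 8 in Ccl5-negative cells, a log2 ratio of 4.78 (3.73 to 6.04). Cxcr3, the receptor for chemokines that draw memory T cells into inflamed tissue, had 127 against 58 UMIs and was found in 53.1% against 7.16% of cells, a log2 ratio of 2.60. Both genes thus marked a minority or a bare majority of the Ccl5-rich cells and very few of the Ccl5-negative ones. The activating receptor Klrk1 had a log2 ratio of 2.10, the adhesion receptor Cd44 1.96, the integrin chain Itgb1 1.8 and Il2rb, the receptor chain for interleukins 2 and 15, 1.71. Eomes, a T-box factor of memory cells, was at 1.49 and Hopx at 1.34. Ly6c2 was at 1.01 (0.90 to 1.11) and lost its 2-fold call with TMM scaling, which lowers the median over all genes to -0.10. Klrd1 at 0.70 and Nkg7 at 0.54 were higher by less than 2-fold.

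The naive genes were graded. All 4 were lower in Ccl5-rich cells, with Ccr7 at a log2 ratio of -0.30 (-0.47 to -0.13), Lef1 at -0.75, Dapl1 at -0.99 and Igfbp4 at -1.60. Igfbp4, with 286 UMIs in Ccl5-rich and 2403 in Ccl5-negative cells, was the 1 of 4 past 2-fold, and the median of the 4 was -0.87. Dapl1 was past 2-fold too with TMM scaling, with all UMIs as the denominator, with the mean over cells and without cells marked for other cell types. Of the 13 quiescence genes that entered none was past 2-fold (Rflnb was lower with TMM scaling), and Il7r at 0.60 and Bcl2 at 0.52 were the highest. The interferon-response list had 1 of 7 genes lower, Ifi27l2a at -1.13. All 7 were below 0, except that 2 lay above 0 when the mean over cells was used in place of the sum.

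**Figure D2:**
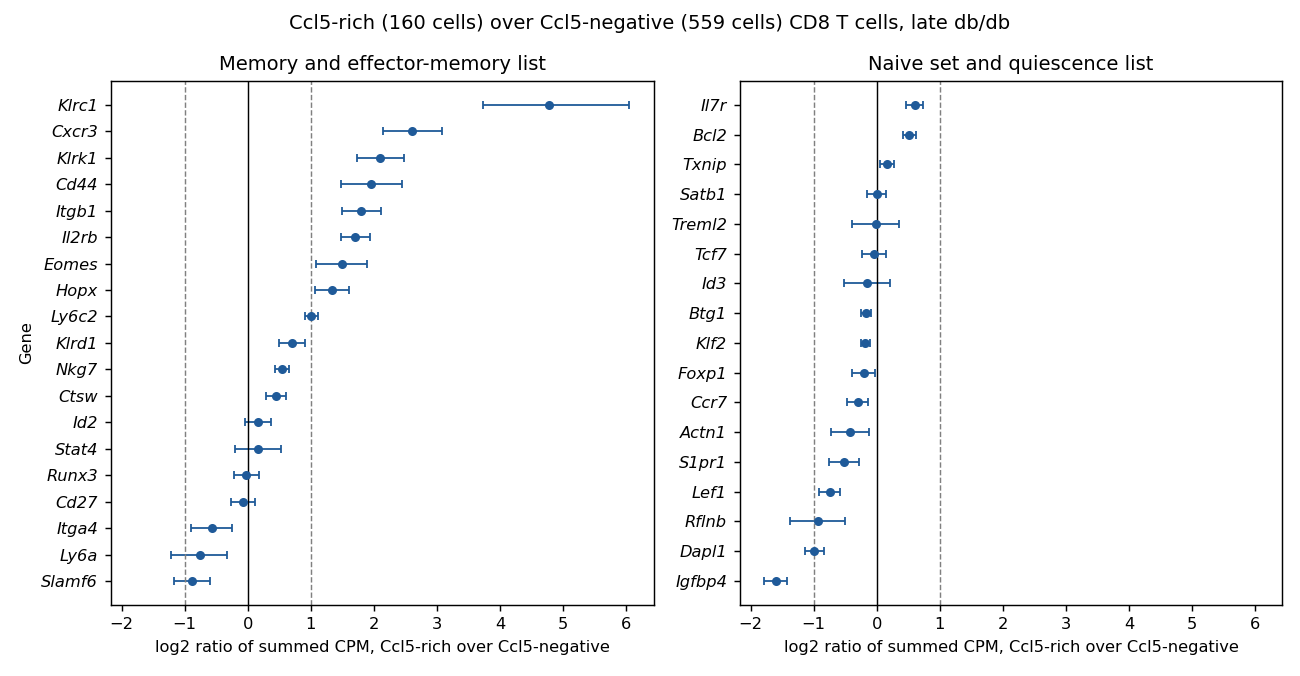
Log2 ratios of summed CPM in 160 Ccl5-rich over 559 Ccl5-negative late db/db CD8 T cells (x axis) for genes of the memory list (left) and of the naive set and quiescence list (right) that entered, with exact 95% intervals for counting error and dashed lines at 2-fold. The memory genes run up to 4.78 for Klrc1 and the naive and quiescence genes down to -1.60 for Igfbp4.

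Other genes that were furthest apart included several with a known place in T cells. Ctla2a had 443 UMIs in Ccl5-rich and 170 in Ccl5-negative cells (log2 ratio 2.86), Samd3 76 and 11 (4.26), and 1700025G04Rik 96 and 41 (2.70). S100a6, a calcium-binding protein raised in activated and memory T cells, was at 2.76 with 46.9% of its Ccl5-rich UMIs in 5 cells. On the lower side Ccr9, the receptor for homing to the small intestine, had 18 UMIs in Ccl5-rich and 349 in Ccl5-negative cells (-2.80). Rgcc was at -2.44, Ramp1 at -1.25, Rab3ip at -1.19, Dtx1, a regulator of Notch signalling, at -1.18 and Xlr4b at -1.16. These genes were spread over many cells, with 5.48% to 19.8% of their UMIs in 5 cells apart from S100a6.

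The remaining extremes were carried by a few barcodes. Fscn1, a dendritic cell gene, was at 6.16 with 98.7% of its Ccl5-rich UMIs in 5 cells, and the neuroendocrine genes Cck, Chgb, Chga and Scg3 and the calcium-binding S100a4 lay at 3.44, 2.99, 2.76, 2.60 and 3.27 with 81.7% to 92.1%. On the lower side Cxcl9 had 0 against 258 UMIs in 4 cells, at least 31.0-fold lower by a floor of 3 UMIs in the Ccl5-rich sum, and Mgp (-7.20), Ccl21a (-4.04), Apoe (-2.99) and Mfge8 (-2.61) had 82.4% to 99.8% of their Ccl5-negative UMIs in 5 cells. Short marker lists of other cell types, trimmed after the data were seen, marked 32 of the 826 cells, 11 of them Ccl5-rich and 15 Ccl5-negative. The types were macrophage, dendritic, fibroblast, endothelial, duct, B cell and platelet. No endocrine or acinar list was used, so cells with such transcripts were marked only where another list marked them. Without the marked cells Fscn1 was at 2.61, Cck at 0.45, Chgb at -0.16, Chga at 0.57, Scg3 at 0.45, S100a4 at 2.77, Mgp at -0.71, Ccl21a at 0.29, Apoe at -0.27 and Mfge8 at -0.61. In that fit 30 genes were higher, 23 of them among the 52, and 12 lower, 9 of them among the 17. The memory list then had 9 genes higher and Slamf6 lower.

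Markers of other cells were compared in the same 2 groups. The endocrine list had 239 UMIs per Ccl5-rich cell and 74.0 per Ccl5-negative cell, but 70.5% of the Ccl5-rich sum lay in 5 cells and the medians were 70 and 65 UMIs. The natural killer list had 1.36 UMIs per Ccl5-rich cell and 0.279 per Ccl5-negative cell, with Klra8 and Klra4 at 0 in both. Eomes is also a member of that list. The list for natural killer T and other innate T cells had 0.906 UMIs per Ccl5-rich cell and 0.338 per Ccl5-negative cell, with Il18r1, its 1 gene that entered, at a log2 ratio of 1.01 and Zbtb16 at 0 in Ccl5-rich cells. The gamma-delta T list had 0.281 and 0.113, with 71.1% of the Ccl5-rich sum in 5 cells. The macrophage list had 26 UMIs in all Ccl5-rich cells and 68 in all Ccl5-negative cells. The part of these transcripts in the differences was not tested beyond leaving out the marked cells.

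Several effector genes outside the entry limits were also more frequent in the Ccl5-rich cells, as sums of few UMIs. Ifng had 57 UMIs in the 160 Ccl5-rich and 6 in the 559 Ccl5-negative cells, Gzmk 14 and 0, Gzma 15 and 3, Gzmm 38 and 6, Ccl4 27 and 4, and Fasl 20 and 7. Gzmb differed little. Over all possible draws of 1000 UMIs per cell it was expected in 0.269% of Ccl5-rich and 0.209% of Ccl5-negative cells. Prf1, which entered, had a log2 ratio of 1.22 and Cxcr6 of 0.73. Granzyme UMIs thus numbered fewer than the Ccl5-rich cells. Cell division was rare in both: at least 3 UMIs of mitosis genes were found in 2 of 160 Ccl5-rich cells (1.25%) and 10 of 559 Ccl5-negative cells (1.79%).

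The CD8 T cells of the late library were next set against its 471 conventional CD4 T cells, chosen by the same rule with Cd4 present and CD8 absent. Of 2611 genes that entered, 31 (1.19%) were at least 2-fold higher and 115 (4.4%) at least 2-fold lower in CD8 T cells. Of the called genes 21.2% were higher, but 42.8% with TMM scaling (59 higher and 79 lower), where the median over all genes was 0.03 against -0.20 for the sums. More than 50% of the UMIs lay in 5 cells for 8 of the higher and 18 of the lower genes. The lists below are read beside that median.

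The largest widespread difference was in Ly6c2, a surface protein of memory CD8 T cells in mice. It had 3896 UMIs in CD8 and 22 in CD4 T cells, or 594 against 6.54 CPM, a log2 ratio of 6.51 (5.91 to 7.18). Ly6c1, its neighbour on chromosome 15 and a close copy, showed the opposite order, with 39 UMIs in CD8 and 329 in CD4 T cells and a log2 ratio of -4.04 (-4.56 to -3.56). Ly6c2 was found in 623 of 826 CD8 T cells (75.4%, 72.3 to 78.3), 18 of 471 CD4 T cells (3.82%), 2 of 193 Foxp3 T cells (1.04%) and 43 of 1953 B cells (2.20%). Within the CD8 T cells it was found in 375 of 559 Ccl5-negative (67.1%) and 153 of 160 Ccl5-rich cells (95.6%). Its share is therefore not read as a share of memory cells. Ly6c1 was found in 19 CD8 (2.30%), 143 CD4 (30.4%), 28 Foxp3 (14.5%) and 17 B cells (0.870%). The 2 genes were found together in 6 CD8 and 5 CD4 T cells. The sources used do not say how reads that match both copies were counted, so each gene's level is uncertain to that extent, and the pair was picked out after its values were seen.

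The 2 genes lie 59327 bases apart on the minus strand. The 250 bases before each start are shown here because the genes differ between the 2 T cell types while their flanks resemble each other: 216 bases aligned and 164 of them (75.9%) were the same. Sequences are from RefSeq (GRCm38.p6), read 5′ to 3′ on the minus strand, at chr15:75111972-75112221 for Ly6c2 and chr15:75048838-75049087 for Ly6c1, and capitals mark the KLF motif CACCC.
Ly6c2: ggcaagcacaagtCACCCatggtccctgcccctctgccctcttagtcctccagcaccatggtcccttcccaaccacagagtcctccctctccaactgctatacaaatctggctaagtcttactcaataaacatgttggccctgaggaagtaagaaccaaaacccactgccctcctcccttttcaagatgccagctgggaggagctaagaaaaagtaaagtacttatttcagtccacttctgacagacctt
Ly6c1: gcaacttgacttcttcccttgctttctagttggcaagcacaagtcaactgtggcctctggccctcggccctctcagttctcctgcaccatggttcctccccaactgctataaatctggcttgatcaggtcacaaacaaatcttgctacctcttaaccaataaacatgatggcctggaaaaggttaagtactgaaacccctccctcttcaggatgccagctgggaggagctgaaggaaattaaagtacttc
Both strands were searched for the T-box motif GGTGTGA, found in 3.33% of 32851 promoter windows of the same length. The TCF/LEF motif CTTTGA is found in 13.8% and the KLF motif CACCC in 52.0% of them. Ly6c2 held 1 KLF match and Ly6c1 none, and the letters of the other motifs are in neither window.

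Among the other genes higher in CD8 T cells were Nkg7, Klrd1 and Ctsw, while none of the 4 genes of the cytotoxic and cytokine list that entered was past 2-fold. The effector set is a separate list, of which 1 of 11 genes entered, Ccl5, higher at a log2 ratio of 2.15. Nkg7 had 3468 UMIs in CD8 and 156 in CD4 T cells (log2 ratio 3.51), Klrd1 988 and 53 (3.26), Ctsw 1613 and 111 (2.90) and Runx3, which silences Cd4 in this lineage, was at 1.67. Plac8 was at 3.55, Lcn4 at 4.47, Fam241a at 2.53, Ccr9 at 2.46 and Ms4a4c at 2.24. Each of these was found in at least 229 CD8 T cells. Xcl1, the chemokine that attracts cross-presenting dendritic cells, had 647 UMIs in CD8 and 1 in CD4 T cells (8.38), with 62.4% in 5 of 83 positive CD8 T cells. Mgp (2.55) and Ccl21a (2.16) had 98.9% and 94.3% of their CD8 UMIs in 5 cells and were at 0.85 and 0.09 without the marked cells.

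Helper genes were lower in CD8 T cells, as all 5 of the CD4 helper list that entered were past 2-fold. Cd40lg, the ligand by which helper cells activate B cells, had 20 UMIs in CD8 and 204 in CD4 T cells (-4.31), Maf 101 and 601 (-3.54), Izumo1r, the folate receptor 4 of helper and regulatory T cells, 242 and 983 (-2.98), Tbc1d4 was at -2.42 and Gata3 at -1.89. Tnfrsf4, the costimulatory receptor OX40, had 69 and 491 UMIs (-3.79), and Pdlim4 was at -3.48. Of the activation list 4 of 14 were lower (Cd28, Icos, Cd40lg and Tnfrsf4), and with TMM scaling Dusp2 and Fos were also 2-fold higher. Of the checkpoint list 3 of 4 were lower, Ctla4 at -2.10, Ikzf2 at -2.32 and Cd200 at -2.15. The regulatory T cell list was lower in 5 of 6 with a median of -2.38 (Ctla4, Ikzf2, Tnfrsf4, Capg and Izumo1r). These lists share genes, so their counts are not separate results. The CD4 T cells were set apart from regulatory T cells only by holding no Foxp3 UMI. Whether cells with undetected Foxp3 are among them was not tested.

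Cell cycle genes were lower as a group, 13 of 13 with a median of -2.14, and 10 of 12 with TMM scaling. Top2a was at -2.23 and Mki67 at -2.17. By cells, at least 3 mitosis UMIs were found in 16 of 826 CD8 T cells (1.94%, 1.11 to 3.13) and 28 of 471 CD4 T cells (5.94%). When the mean over cells was used, 4 cycle genes entered and 3 were lower. Gpnmb (-7.04), Ctsk (-6.33), Spp1 (-5.61), Lyz2 (-5.15) and Lgals3 (-4.43), genes of macrophages, had 92.6% to 100% of their CD4 UMIs in 5 cells, and Fabp5 (-3.35) 66.0%. Without the marked cells they were at -1.15, -0.37, 0.11, -0.59, -3.03 and -2.26.

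Genes of T cell state differed by list between CD8 and CD4 T cells. Of the naive set none of 4 was past 2-fold. Dapl1 was at 0.82, Lef1 at 0.53, Ccr7 at 0.05 and Igfbp4 at 0.00, and the median of 0.29 stood against -0.20 over all genes. With TMM scaling Dapl1 was past 2-fold, and with the mean over cells 2 of 4 lay below 0. None of 13 quiescence genes was past 2-fold (median 0.05). The memory list was split, with Runx3, Klrd1, Nkg7, Ly6c2 and Ctsw higher and Itga4, Cd44, Bhlhe40, Ly6a and Ly6c1 lower of 18 (7 higher and 3 lower with TMM scaling). The receptor signalling list had 1 of 16 lower, Cd28, and the interferon list 1 of 7, Ifi27l2a at -1.46.

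**Figure D3:**
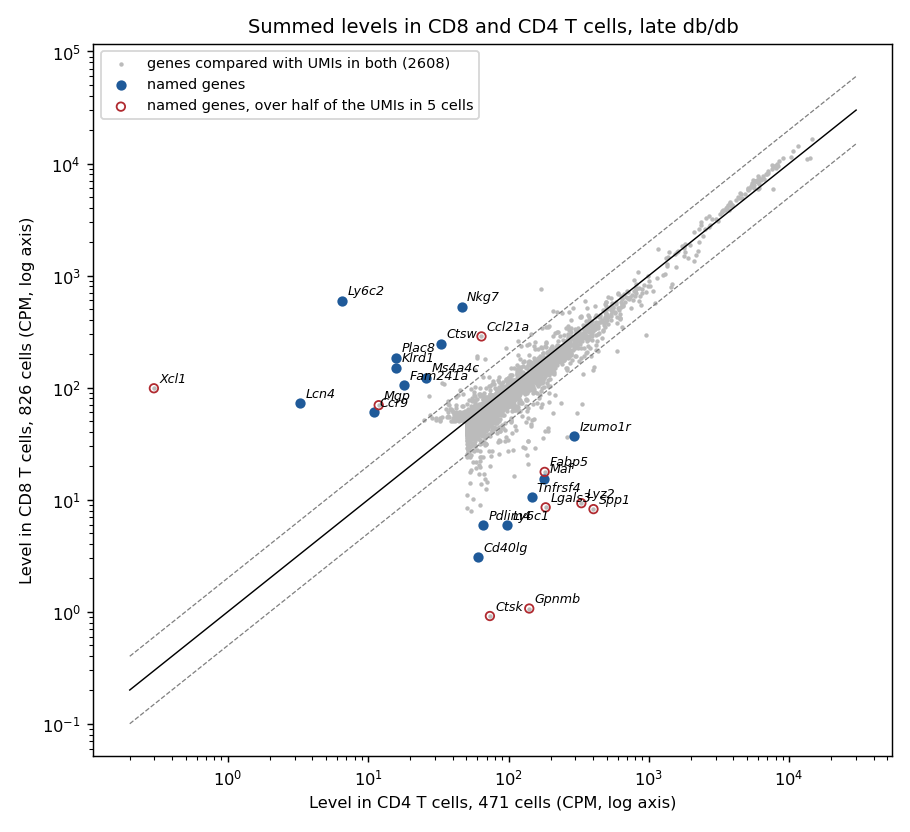
Level of each gene in the sum of 826 CD8 T cells (y axis, CPM, log scale) against that in 471 CD4 T cells (x axis, CPM, log scale) of late db/db, with the line of equality and dashed lines at 2-fold; filled points are the named genes and open red points those named genes with more than 50% of their UMIs in 5 cells. Ly6c2 stands at 594 against 6.54 CPM and Nkg7 at 529 against 46.4 CPM, above most other genes that lie near the line.

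Against the 193 Foxp3 T cells, which carry the factor of regulatory T cells, the naive genes were higher in CD8 T cells. Of 2848 genes that entered, 75 (2.63%) were at least 2-fold higher and 294 (10.3%) at least 2-fold lower. Of the called genes 20.3% were higher, and 48.1% with TMM scaling (148 higher and 160 lower), where the median over all genes was 0.11 against -0.29 for the sums. In the naive set 3 of 4 were higher with a median of 1.92: Dapl1 had 3359 UMIs in CD8 and 63 in Foxp3 T cells (3.53), Igfbp4 was at 2.14 and Lef1 at 1.70, while Ccr7 was at -0.16. Klf2 (1.34), Rflnb (1.81) and Satb1 (1.18) were the 3 of 13 quiescence genes past 2-fold, and 8 of 13 were with TMM scaling.

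Ly6c2, Klrd1 and Nkg7 were higher here too, in a comparison that uses the same 826 CD8 T cells. Of the 4 genes of the cytotoxic and cytokine list that entered none was higher, and Tgfb1 and Srgn were lower. In the effector set 1 of 11 genes entered, Ccl5, higher at 1.26. Ly6c2 was at 8.72, Klrd1 at 6.74, Nkg7 at 4.55, Plac8 at 3.45, Lcn4 at 4.68, Tdrp at 4.76, Sidt1 at 2.51, Themis, a T cell receptor signalling adaptor, at 2.48 and Ms4a4c at 2.43. Xcl1 (6.13) and Mgp (5.63) had 62.4% and 98.9% of their CD8 UMIs in 5 cells, and Mgp was at 0.54 without the marked cells. The regulatory T cell list was lower throughout, 7 of 7 with a median of -4.34 (Ctla4, Ikzf2, Il2ra, Tnfrsf4, Tnfrsf18, Capg and Izumo1r). The genes given next are those furthest apart over all genes, and of them only Il2ra and Tnfrsf4 belong to that list. Il2ra, the high-affinity interleukin 2 receptor chain, had 21 UMIs in CD8 and 231 in Foxp3 T cells (-5.67), Lrrc32, which displays latent TGF-beta, 6 and 121 (-6.54), Ikzf4 9 and 104 (-5.74), Tnfrsf4 69 and 678 (-5.51), Tiam1 11 and 90 (-5.24) and Cybb 21 and 113 (-4.64). Penk was at -8.57 with 82.9% in 5 cells, and Il22ra2 (0 against 87 UMIs, at least 134-fold lower), Lyz1 (-7.99), Ccl22 (-6.43), Lyz2 (-6.28) and Gpm6b (-4.71) had 95.3% to 100%. Without the marked cells Lyz2 was at 0.64, Ccl22 at -2.26 and Gpm6b at -2.46.

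Activation genes were lower in CD8 than in Foxp3 T cells in 9 of 15 cases (6 lower and 2 higher with TMM scaling), checkpoint genes in 4 of 5 and cycle genes in 9 of 11. Of the residence list Rgs1, Rgs2 and Ahr were lower and Xcl1 higher of 6. The acinar list, pancreatic enzymes that T cells do not make, was higher in 5 of 6, and 75.1% of the acinar UMIs of the CD8 T cells lay in 5 cells. The part of such transcripts in the other differences was not tested.

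At an equal depth of 1000 UMIs per cell, reached by 1 random draw of UMIs from each cell of a group, the order of the cell types could be read without their different depths. Nkg7 was found in 40.3% of CD8, 1.70% of CD4, 1.55% of Foxp3 and 0.154% of B cells, and Ly6c2 in 36.4% of CD8, 0.425% of CD4, 0% of Foxp3 and 0.666% of B cells. Ccl5 was found in 17.7%, 3.18%, 3.11% and 1.23% of the same 4 types, and Klrd1 in 13.4% of CD8 and 1.27% of CD4 T cells. Dapl1 was found in 33.1% of CD8, 23.8% of CD4 and 2.07% of Foxp3 T cells, Igfbp4 in 34.6%, 27.2% and 8.81%, and Lef1 in 28.3%, 24.4% and 10.9% with 0.563% of B cells. Over all possible draws, Igfbp4 was expected in 34.1%, 31.6% and 8.11% and Lef1 in 32.8%, 25.0% and 12.0% of CD8, CD4 and Foxp3 T cells. The gap between CD8 and CD4 T cells was thus smaller than drawn for Igfbp4 and larger for Lef1. Ccr7, also a gene of B cells, was found in 24.8% of CD8, 23.1% of CD4, 18.7% of Foxp3 and 30.01% of B cells. Granzymes were near 0, with Gzmk in 0.242% of CD8 and 0.212% of CD4 T cells and 0% of B cells, and Gzma and Gzmb in 0.121% and 0% of CD8 T cells.

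**Figure D4:**
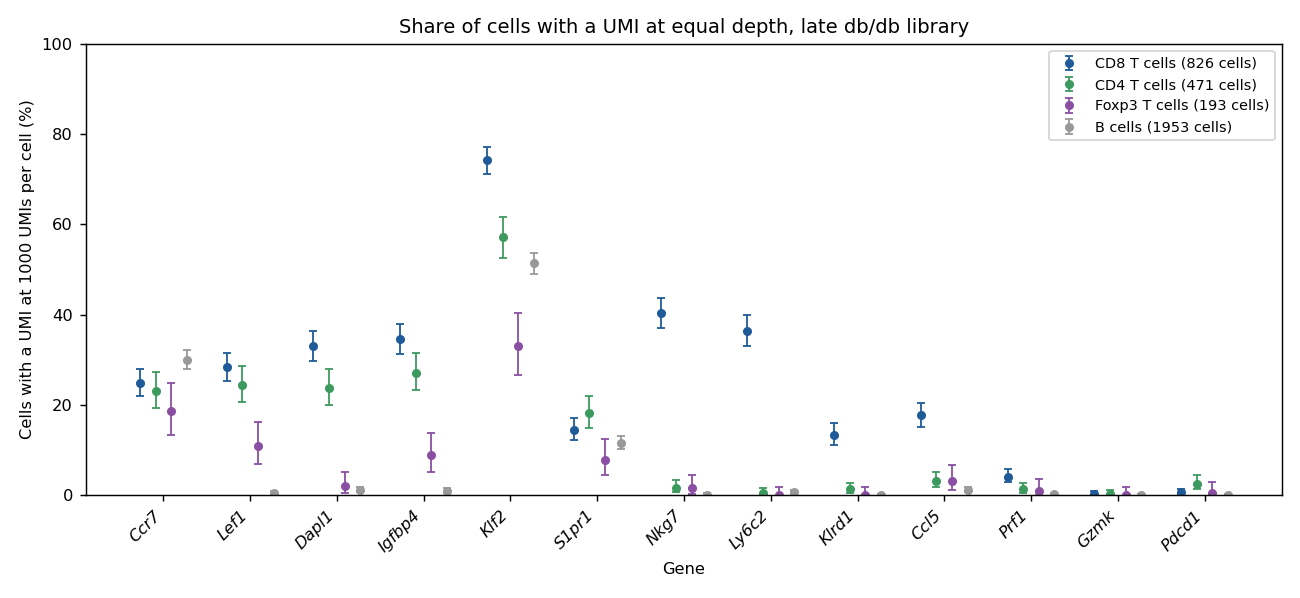
Share of cells with a UMI (y axis, percent) for 13 genes after drawing 1000 UMIs from each cell of late db/db, for CD8, CD4, Foxp3 and B cells, with exact 95% intervals. Nkg7 and Ly6c2 reach 40.3% and 36.4% in CD8 T cells and stay under 2% in the other 3 types.

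The 22 early db/db CD8 T cells held a different set of state genes, given as values because the cells are few and come from 1 library of another age. The median of Ccl5 per cell was 0 UMIs in all late cells, 17.5 in the late Ccl5-rich cells and 44 in the early cells, of which 21 (95.5%, 77.2 to 99.9) held at least 3. The naive set was at 0 UMIs in 17 of 826 late cells and 17 of 22 early cells, and no early cell had more than 7. The median depth was 7752 UMIs in late and 2863.5 UMIs (1802 to 6231) in early cells. Per 10000 UMIs, the naive set stood at 9.37 in late Ccl5-rich cells, 18.3 in late Ccl5-negative cells and 1.55 in early cells.

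Genes of effector and memory cells ranged from frequent to rare in the early cells. Gzmk, a granzyme of effector memory cells, had 38 UMIs in 77.3% of cells, and Gzma also had 38 UMIs but in 9.09%. Cxcr6, a homing and retention receptor, was found in 59.1%, Cxcr3 in 54.5%, Ifng in 45.5% and Ccl4 in 36.4%. The integrin chains Itga4 and Itgb1 were found in 63.6% and 68.2%. Id2, a factor that sustains effector cells, and Rgs1, which restrains chemokine receptor signals, were each found in 81.8%. Other genes of this kind were found in fewer of these shallow cells, as Il2rb was found in 22.7%, Cd44 and Prf1 in 13.6%, Eomes, Klrg1 and Gzmb in 9.09% and Cx3cr1 in 4.55%. Over all possible draws of 1000 UMIs per cell, Cd44 was expected in 5.66% of early and 5.87% of late Ccl5-rich cells. In the same order Prf1 was expected in 5.56% and 6.56%, Il2rb in 7.17% and 19.5%, Eomes in 3.14% and 6.79% and Gzmb in 4.39% and 0.269%. Ccr7 and S1pr1 had 1 UMI each, Dapl1 none and Lef1 5. Pdcd1 had none, where 3 UMIs would be 44.9 CPM.

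At 1000 UMIs per cell both late groups stood apart from the early cells in several genes. Each group was drawn separately, so the shares of the late groups need not add up to those of all CD8 T cells above. The share expected over all possible draws is given beside each gene but Klf2 and Dapl1. Gzmk was found in 0% of late Ccl5-rich and 0% of late Ccl5-negative cells and in 40.9% of early cells (20.7 to 63.6), where 1.17%, 0% and 43.4% were expected over all draws. Cxcr6 was found in 3.13% of late Ccl5-rich, 3.76% of late Ccl5-negative and 40.9% of early cells. For Cxcr6 5.57%, 3.09% and 34.5% were expected, which reverses the order of the late groups. Itga4 was found in 7.5%, 10.9% and 45.5% (expected 5.14%, 8.30% and 35.9%) and S100a4 in 3.13%, 0.537% and 45.5% (expected 4.21%, 0.528% and 61.8%). Cxcr3 was found in 9.38%, 1.61% and 31.8% (expected 8.83%, 1.04% and 24.3%). Ly6c2 was found in 63.8% of late Ccl5-rich, 27.9% of late Ccl5-negative and 68.2% of early cells (expected 57.1%, 28.6% and 63.1%). Nkg7 was found in 48.1%, 31.7% and 90.9% (expected 48.9%, 34.4% and 73.8%). Klf2 was found in 69.4%, 72.6% and 31.8%, and Dapl1 in 21.3%, 37.6% and 0%. The late intervals for Dapl1 (15.2 to 28.4 in Ccl5-rich and 33.5 to 41.7 in Ccl5-negative cells) stand against the 15.4% that a share of 0% in 22 early cells allows, and that of the Ccl5-rich cells just overlaps it. The Cxcr3 interval of 5.34 to 15.0 in late Ccl5-rich cells overlaps the 13.9 to 54.9 of the early cells. Il2rb was found in 21.3% of late Ccl5-rich, 5.37% of late Ccl5-negative and 4.55% of early cells (expected 19.5%, 5.65% and 7.17%), and the early interval reaches 22.8%.

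**Figure D5:**
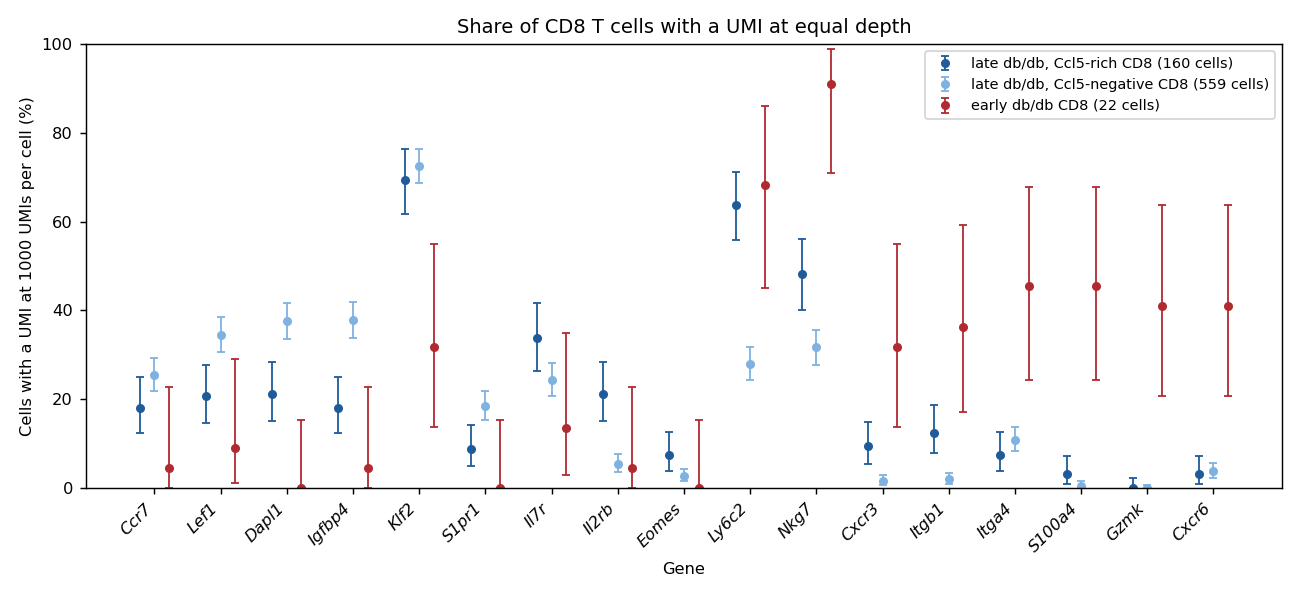
Share of CD8 T cells with a UMI (y axis, percent) after drawing 1000 UMIs from each cell, for 160 Ccl5-rich and 559 Ccl5-negative late db/db cells and 22 early db/db cells, with exact 95% intervals. In this draw Gzmk and Cxcr6 stand under 4% in both late groups and at 40.9% in the early cells, while Dapl1 is at 21.3%, 37.6% and 0%. Over all draws 5.57% of Ccl5-rich cells were expected to hold Cxcr6.

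The other 2 libraries held too few cells for shares. Of the 4 intervention cells 1 had Ccl5, with 137 UMIs, and their naive-set sums were 1 to 9. Of the 6 control cells 1 had Ccl5, with 49 UMIs, and their naive-set sums were 0 to 17. The naive-set sum was 0 in 17 of 826 late cells, 0 of 4 intervention cells, 17 of 22 early cells and 1 of 6 control cells.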

How the data were processed

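The deposited matrices hold UMI counts for 30905 genes per barcode, written by the authors as whole numbers without normalization. Per the file headers they came from Cell Ranger 3.0.0, and the submitters' processing notes list Seurat, Cell Ranger, CASAVA 1.8 and mm10 with no role for each. The lowest barcode of the late library held 501 UMIs. The annotation and any removal of doublets before deposit are not given in the sources used here.

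UMIs were summed over the cells of each population and divided by the sum over all genes other than mitochondrial genes and Pyy, Ppy, Sst, Gcg, Iapp, Ins1 and Ins2, as CPM. A gene entered with at least 50 CPM in the higher group and 20 UMIs in both, and was counted past 2-fold. Zeros were bounded by 3 UMIs in the group's sum. The named genes are the 12 furthest apart on each side, without rule, immunoglobulin, mitochondrial, ribosomal protein, haemoglobin and hormone genes, and the listed genes are given by counts with examples. The calculation was checked on simulated sums with 4-fold changes: all changed genes among 2403, 2414 and 2301 entered were recovered (CD4, Foxp3 and Ccl5 comparisons), and 94.8%, 95.1% and 95.3% of the true ratios lay in the intervals. The simulated sums held only the counting error that the intervals assume. UMIs gathered in a few cells were not simulated, so the check does not show how the intervals do for such genes.

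Members and gene lists were chosen with earlier results of these data known. The Ccl5 division, the mitosis genes, the trimmed lists for doublets and the Ly6c pair were chosen after the values were seen. The planned comparison of the class with only the effector set was replaced by the Ccl5 division because that class held 10 cells. Some genes of the planned lists, 1 of the naive set among them, are not reported here and were left out of the sets and lists. No doublet caller was run and no cell was removed from the main values. Thinning used 1 draw per group with seed 1. Alternatives were TMM factors (edgeR), all UMIs as denominator, other limits, the mean over cells, deeper cells (2000 UMIs and 1000 genes), other Ccl5 limits and leaving out marked cells. Tools were Python 3.11.15, numpy 2.4.6, scipy 1.17.1, pandas 2.3.3, Biopython 1.88, matplotlib 3.10.9, R 4.3.3 and edgeR 4.0.16.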

Additional observations from a re-analysis of the deposited data

How the results depend on the processing

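Each group is 1 library and each population comes from it, so no alternative gives a spread between animals, and depth limits every share of cells. Of the counts and shares recomputed, 89 stayed within 1.5 times the reported count or within its interval and 47 moved. Of the values of named genes, 571 stayed within their interval, 53 moved and 4 changed sign. The number of CD8 T cells stayed within these limits under the other cell filters, with 818 cells at 2000 UMIs and 1000 genes.

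For CD8 against CD4 T cells, 59 genes were higher with TMM factors and 57 lower at 100 CPM, 357 and 848 were higher and lower with no CPM minimum, and 74 and 294 at 1.5-fold. For CD8 against Foxp3 T cells, 148 and 160 were higher and lower with TMM factors, 131 lower at 100 CPM, 529 and 1388 with no CPM minimum, and 145 and 670 at 1.5-fold. For Ccl5-rich against Ccl5-negative cells, 26 and 6 were higher and lower at 100 CPM, 425 and 338 with no CPM minimum and 108 and 51 at 1.5-fold. There 32 were higher by the mean over cells, 30 without marked cells and 23 among genes with at most 50% of their UMIs in 5 cells, 26 were lower at 5 or more Ccl5 UMIs, and 80 and 28 were higher and lower at 10 or more. The cause was not tested.

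Cells with only the naive set, both sets and only the effector set made up 58.8%, 13.6% and 10.4% at 1000 UMIs per cell, 62.9%, 25.9% and 6.22% at 2000 UMIs, and 63.2%, 32.1% and 3.15% with at least 2 UMIs needed. Without Ccl5 in the effector set, 54.4% held only the naive set and 43.6% both. The CD8 shares at 2000 UMIs and without thinning were 37.8% and 74.1% for Ccr7, 52.4% and 90.7% for Lef1, 20.7% and 32.3% for Ccl5, 58.8% and 88.9% for Nkg7 and 54.5% and 75.4% for Ly6c2, since more UMIs per cell were drawn. The share expected over all draws of 1000 UMIs, an alternative chosen after seeing the data, was 32.8% for Lef1. Of 203 shares from 1 draw, 5 had an expected share outside their interval. They were Lef1 and Itga4 in CD8, Igfbp4 in CD4 and Pdcd1 in Foxp3 T cells, and Itga4 in Ccl5-negative CD8 T cells.

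Without marked cells the log2 ratio changed sign for Spp1 against CD4 T cells (0.11), Lyz2 against Foxp3 T cells (0.64), and Chgb (-0.16) and Ccl21a (0.29) in the Ccl5 comparison. Leaving out cells by the untrimmed marker lists was not run because it leaves 0 cells, and the comparison of the class with only the effector set was not run because it holds 10. A smaller naive set was not run. No paired analysis was possible because each group is 1 library.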

Other observations

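Ighm, the heavy chain of immunoglobulin M, was found in 73.8% of the late db/db CD8 T cells (70.7 to 76.8) with 1474 UMIs, and only 3.19% of these lay in 5 cells. The ratio of Ighm to Igkc UMIs was 2.59 in CD8, 2.45 in CD4 and 4.48 in Foxp3 T cells, against 0.0996 in B cells and 0.145 in barcodes with at least 30% insulin UMIs. The share of cells with Ighm was 67.5% in CD4 T cells, 75.1% in Foxp3 T cells and 34.5% in the insulin-rich barcodes, whose median depth was 89838 UMIs. The 22 early db/db CD8 T cells held 8 Ighm and 2 Igkc UMIs in all.

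T cell receptor V genes gave 351 UMIs over 163 genes in the CD8 T cells, and 222 cells (26.9%) held at least 1. Trav16 led with 37 UMIs. The 3′ counts were too sparse to describe clones.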
